A study of Mus musculus with 4 samples.

Results

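Regions of open chromatin in which the peak caller placed 5 or more separate summits inside 1 called interval were examined in motor neurons from the cervical spinal cord of day 12.5 mouse embryos. In ATAC-seq, the assay behind the 4 libraries, Tn5 transposase inserts adapters where DNA is accessible, and the position of a summit is the local maximum of such insertions. There were 2 libraries of Hoxa5-deficient embryos and 2 of control littermates. Embryos of both genotypes carried the ChAT::GFP transgenic reporter, which labels cells that express choline acetyltransferase, and the GFP-positive cells of both were sorted. The titles of the controls carry the letters Wt and those of the Hoxa5-deficient libraries the letters Mut. The labels do not say how Hoxa5 was removed, what the control genotype was beyond these words, or how many embryos each library holds. Intervals of the 4 lists that overlapped by 1 bp or more were merged into 199576 union regions. A region was kept when the lists of both control libraries had in it an interval with 5 or more summits, which held for 610 regions, or 0.306% of all. They are called multi-summit regions below. Of the 65789 union regions with an interval in all 4 libraries, 0.926% were multi-summit regions, and 609 of the 610 were called in all 4.

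A promoter or enhancer that is used by a cell is depleted of nucleosomes over a short stretch of DNA, and a narrow site of this kind gives a single summit. Longer accessible domains, such as CpG-island promoters with several start sites, can hold a row of nucleosome-free stretches parted by positioned nucleosomes, and a peak caller can then split 1 wide interval into several summits. Hoxa5 belongs to the Hox5 paralog group of homeodomain proteins and is expressed in the cervical spinal cord, where Hox5 proteins are known for their role in the phrenic motor neurons that drive the diaphragm.

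The 2 Hoxa5-deficient lists held 192771 and 206114 summits in 127458 and 138248 intervals, and the control lists held 165866 and 163016 summits in 115089 and 113505 intervals. An interval held 1.51 and 1.49 summits on average in Hoxa5-deficient libraries and 1.44 in each control. Intervals with 5 or more summits numbered 1711 and 1578 in Hoxa5-deficient libraries and 1210 and 1126 in controls, and the highest number of summits in 1 interval was 11 and 10 against 10 and 11. A measure that grows with sequencing depth, the lowest local background computed from fold and p, was 5.14 and 6.06 tags in Hoxa5-deficient libraries and 5.43 and 4.39 tags in controls. Of 9 motor neuron genes (Chat, Slc18a3, Slc5a7, Isl1, Isl2, Mnx1, Lhx3, Lhx4 and Prph), 7 and 8 had an interval at a gene end in the Hoxa5-deficient libraries and 9 and 8 in the controls. Of 33 transcription factors of spinal interneurons, 33 and 31 had an interval at an end in Hoxa5-deficient libraries and 33 in each control, and of 26 markers of blood, vessel and muscle cells 12 and 12 against 15 and 14. An open gene end does not by itself tell the cell type here.

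Multi-summit regions are shown here first by the sequence of promoters that lie in them, because most of them sit at gene starts. The windows run from 250 bases before to 50 bases after an annotated start, are taken from RefSeq on the assembly GRCm38.p6, which has the coordinates of mm10, and are printed 5′ to 3′ on the strand of the gene with each CG in capitals. The set was chosen to hold the widest multi-summit region (Hivep2), the Hox gene with such a region (Hoxb4), a gene start whose summits were fewer in both Hoxa5-deficient libraries (Wnt2b) and others at which they were more numerous (Shank3 and Egln1).
Hivep2 (chr10:13966129-13966428, plus strand): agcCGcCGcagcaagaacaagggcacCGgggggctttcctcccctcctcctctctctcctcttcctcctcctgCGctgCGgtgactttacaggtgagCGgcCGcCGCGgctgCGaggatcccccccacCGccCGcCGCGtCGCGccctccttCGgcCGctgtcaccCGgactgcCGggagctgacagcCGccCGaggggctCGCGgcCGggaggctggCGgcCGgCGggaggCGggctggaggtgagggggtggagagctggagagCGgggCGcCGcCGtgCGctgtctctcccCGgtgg
Hoxb4 (chr11:96318017-96318316, plus strand): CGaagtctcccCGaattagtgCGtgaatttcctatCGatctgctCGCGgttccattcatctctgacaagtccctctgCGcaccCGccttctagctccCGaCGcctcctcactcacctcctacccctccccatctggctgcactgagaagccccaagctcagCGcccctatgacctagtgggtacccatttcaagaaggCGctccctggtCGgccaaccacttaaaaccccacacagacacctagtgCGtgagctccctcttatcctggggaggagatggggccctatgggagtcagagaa
Wnt2b (chr3:104961660-104961959, minus strand): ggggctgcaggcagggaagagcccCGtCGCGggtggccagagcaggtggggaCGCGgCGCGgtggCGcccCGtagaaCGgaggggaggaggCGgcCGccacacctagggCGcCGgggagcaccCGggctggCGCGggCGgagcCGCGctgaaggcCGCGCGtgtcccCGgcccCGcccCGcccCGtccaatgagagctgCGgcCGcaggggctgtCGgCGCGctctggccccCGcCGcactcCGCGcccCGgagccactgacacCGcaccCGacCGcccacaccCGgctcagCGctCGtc
Shank3 (chr15:89499358-89499657, plus strand): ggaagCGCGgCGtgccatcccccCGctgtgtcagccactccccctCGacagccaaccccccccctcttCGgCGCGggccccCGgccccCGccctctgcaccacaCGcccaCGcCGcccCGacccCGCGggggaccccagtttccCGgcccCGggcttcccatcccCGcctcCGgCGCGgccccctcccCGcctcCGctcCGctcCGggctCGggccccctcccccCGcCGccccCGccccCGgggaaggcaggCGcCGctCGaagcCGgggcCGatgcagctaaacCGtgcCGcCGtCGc
Egln1 (chr8:124949205-124949504, minus strand): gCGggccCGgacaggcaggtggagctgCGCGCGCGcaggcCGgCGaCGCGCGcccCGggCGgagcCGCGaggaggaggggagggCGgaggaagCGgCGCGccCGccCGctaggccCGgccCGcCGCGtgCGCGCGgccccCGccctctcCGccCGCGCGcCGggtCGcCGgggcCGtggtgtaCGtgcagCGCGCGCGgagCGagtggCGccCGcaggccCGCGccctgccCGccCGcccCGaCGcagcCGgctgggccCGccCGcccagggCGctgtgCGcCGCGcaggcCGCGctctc
The 5 windows differed in composition. Those of Egln1, Wnt2b, Shank3 and Hivep2 held 60, 43, 40 and 35 CG, while that of Hoxb4 held 14 and was 58% G and C. The Hoxb4 window is the only one of the 5 without the letters GGGCGG on either strand, the core that Sp-type zinc-finger factors are known to recognise.

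The multi-summit regions were wide. Their union width had a median of 1853 bp, quartiles of 1669 and 2066.5 bp and a range from 1107 to 3575 bp, against a median of 1264 bp for the 6201 regions with 3 or 4 summits in both controls, 765 bp for regions called in all 4 libraries and 345 bp for all union regions. The number of summits per kb of interval was 3.03 and 3.04 in the Hoxa5-deficient libraries and 3.12 and 3.18 in the controls for multi-summit regions. It was slightly lower, 2.83 and 2.78 against 2.91 and 2.94, for regions with 3 or 4 summits. For all union regions it was 3.05 and 3.01 against 3.15 and 3.16. Sorted by the lower of the 2 control summit numbers, it was 2.67 and 2.61 against 2.78 and 2.81 for 2 summits. For 7 or more it was 3.13 and 3.20 against 3.19 and 3.26. A higher summit number thus went with a wider region and, from 2 summits on, with a somewhat higher density of summits. Since the rule chose regions on summit number, these widths are a description and carry no test.

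The gaps between neighbouring summits were alike in the 4 libraries. The median gap between them was 294 and 288 bp in Hoxa5-deficient libraries and 288 and 289 bp in controls, with quartiles of 245 and 369 bp and of 239 and 359 bp against 244 and 360 bp and 238.75 and 358 bp, and with 51.8% and 54.3% of gaps against 53.5% and 52.4% lying between 150 and 300 bp, and only 1.53% and 1.72% against 2.23% and 2.53% under 150 bp. Regions with 3 or 4 summits had nearly the same median gaps, 293 and 291 bp against 294 and 296 bp. The labels do not say whether peak calling set a minimum distance between summits.

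**Figure D1:**
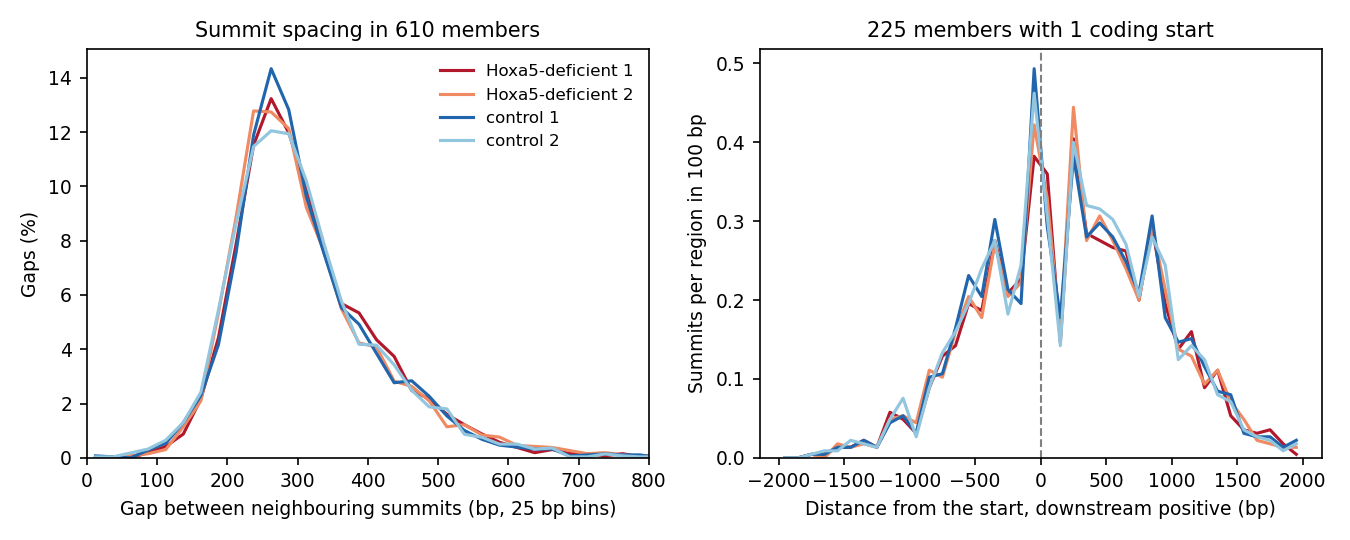
Left, gaps between neighbouring summits of the 610 multi-summit regions (bp, 25 bp bins) as a percentage of gaps in each library; the medians lie between 288 and 294 bp in all 4 libraries. Right, summits per region in 100 bp bins around the annotated start in the 225 regions with a single coding start. All 4 libraries have a local maximum just before the start and a dip between 100 and 200 bp after it.

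Most multi-summit regions lay at genes' ends. Of the 610, 476 (78.0%) came within 1 kb of an end of a protein-coding gene and 409 (67.0%) covered the end itself, while 9.66% of all union regions, 21.6% of regions called in all 4 libraries and 60.8% of regions with 3 or 4 summits in both controls came within 1 kb. Sorted by the lower of their control summit numbers, the share at gene ends was 8.63%, 34.0%, 58.6% and 70.9% for 1, 2, 3 and 4 summits, and 79.1%, 73.1% and 78.8% for 5, 6 and 7 or more. The share rose with summit number up to 5 and not beyond. A wide region reaches a gene end more easily than a narrow one, and when the strongest summit was used in place of the whole region the share within 1 kb was 66.2% for multi-summit regions and 57.2% for regions with 3 or 4 summits. Only 23 multi-summit regions (3.77%) lay over 100 kb from a gene end, against 26.9% of all regions and 20.3% of those called in all 4 libraries.

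**Figure D2:**
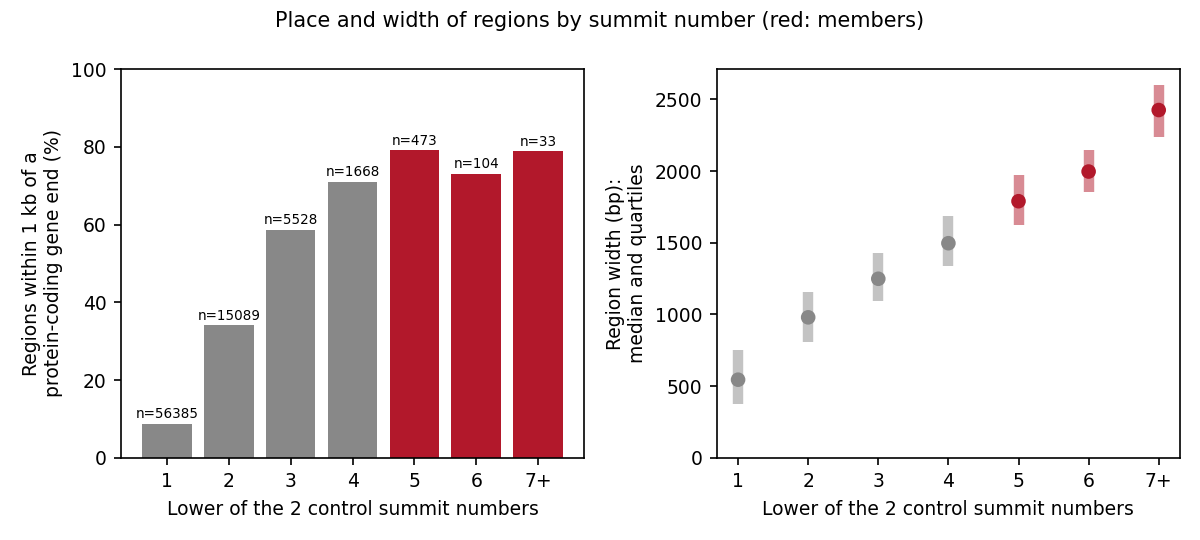
Left, percentage of union regions within 1 kb of an end of a protein-coding gene, by the lower of the 2 control summit numbers (number of regions above each bar); right, median region width in bp with the quartiles as bars. Regions that meet the rule are red: their share at gene ends lies between 73.1% and 79.1%, and their median width grows with the summit number.

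Outside gene ends, 55 multi-summit regions covered or neighboured a coding start inside a gene, such as an alternative promoter, 13 lay at the start of a noncoding gene, 33 inside a gene without a start and 24 between genes without one; for 9 on chromosome 18, starts were not analysed here. In all, 569 regions overlapped a protein-coding gene and 41 did not. Starts of genes on both strands, the arrangement of a bidirectional promoter, fell in 39 regions (6.39%). The share over all regions is not given here, so this count is a description only. The table of starts used here held 408 of the 555 genes with a multi-summit region at an end. Outside chromosome 18, 386 of 583 regions (66.2%) had a coding start of this table within 1 kb, and among the 358 regions at an end of a gene in the table the same held for 330 (92.2%). A region counted as without a start may thus lie at a start that was not analysed here; of the 33 inside a gene, the host gene was in the table for 22.

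Regions with a single coding start extended further into the gene than upstream of it. Across 225 such regions the median extent was 1123 bp downstream and 682 bp upstream, and 165 (73.3%) were longer downstream. Summits followed the same asymmetry: 62.0% and 61.8% lay downstream in the Hoxa5-deficient libraries and 60.2% and 60.7% in the controls. Summits were dense in the 100 bp before the start, with 0.382 and 0.422 per region in Hoxa5-deficient libraries and 0.493 and 0.462 in controls. They were sparse from 100 to 200 bp after it, with 0.147 and 0.156 per region against 0.178 and 0.142. From 200 to 300 bp after it they were frequent again, with 0.404 and 0.444 against 0.382 and 0.4. In Hoxa5-deficient libraries this bin held 91 and 100 summits, and the bin before the start only slightly fewer, 86 and 95. In controls it held 86 and 90, against 111 and 104 before the start. The first nucleosome of a gene is known to sit just after the start. Regions with 3 or 4 summits had the same asymmetry, 74.7% of 2154 being longer downstream. In them the bin before the start was the densest in all 4 libraries. It held 0.474 and 0.472 summits per region in Hoxa5-deficient libraries and 0.521 and 0.532 in controls.

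Promoters in multi-summit regions were rich in CG. The 491 annotated windows whose start lay in such a region, of 412 genes, had a median of 69% G and C and 29 CG, with an observed over expected CG ratio of 0.850. The 4098 windows in regions with 3 or 4 summits had 64%, 24 CG and a ratio of 0.814, and all 21263 coding windows had 56.3%, 13 CG and 0.567. Counting matches on either strand, 77.0% of windows in multi-summit regions held GGGCGG, against 70.6% in regions with 3 or 4 summits and 46.2% of all coding windows. TATAAA, the letters of the TATA box, was in 4.28%, against 5.27% and 12.6%, and CCAAT, the letters of the CCAAT box, in 26.1%, against 34.97% and 38.2%. TAATTA, the core to which many homeodomain proteins bind, was in 0.815%, against 1.68% and 4.53%. Matches of different motifs may share letters, and a match is a description of the letters only.

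In strength the multi-summit regions were high, and their rank against regions with 3 or 4 summits depended on the measure. In the authors' fold enrichment over local background, the strongest summit of a region had a median of 9.31 and 10.04 in the Hoxa5-deficient lists and 9.10 and 9.36 in the control lists, below the medians of regions with 3 or 4 summits, which were 11.5 and 12.6 against 10.97 and 11.2. By the authors' −log10 p, the strongest summit was instead ranked among all intervals of a list. The median percentile was 92.8 and 93.2 against 91.7 and 92.1 in multi-summit regions. It was slightly lower, 92.2 and 92.8 against 91.2 and 91.1, in regions with 3 or 4 summits. The weakest summit of a multi-summit region had a median fold of 2.58 and 2.59 against 2.31 and 2.42. Summits of 1 region thus differed widely in strength, the ratio of strongest to weakest having a median of 3.47 and 3.72 in Hoxa5-deficient lists and 3.70 and 3.78 in control lists. A weak summit lies nearer to the calling threshold and is more easily gained or lost between libraries.

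The 12 regions with most summits over the controls included the ends of genes for signalling enzymes, chromatin enzymes and neuronal proteins. The region at an end of Prkce, which encodes protein kinase C epsilon, held 9 and 10 summits in Hoxa5-deficient libraries and 8 and 11 in controls over 2544 bp (chr17:86166448-86168991). The groups overlapped there. Fam155a, a subunit of the NALCN sodium leak channel complex, had 8 and 8 summits against 9 and 10, and Cpeb2, a regulator of mRNA translation, had 7 and 8 against 9 and 8 at a noncoding start inside it. Klf10, a zinc-finger factor induced by TGF-beta, had 7 and 7 against 10 and 7. Enzymes that modify chromatin were among them. Nsd1, a histone H3 lysine methyltransferase, had 10 and 10 summits in the Hoxa5-deficient libraries against 9 and 7, and over all intervals 10 and 11 against 9 and 10. Dnmt3a, a de novo DNA methyltransferase, had 6 and 9 against 8 and 8 at an internal start, and over all intervals 8 and 9 against 8 and 8. Rims2, a scaffold of the presynaptic active zone, had 9 and 9 against 7 and 8, and Adcy5, an adenylyl cyclase, 7 and 7 against 7 and 8. The others were the regions of Hivep2, LOC108167694 with Gm20783, Nol4l and Lemd1, with from 5 to 11 summits in each library.

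The widest region, 3575 bp, lay at an internal start of Hivep2, a zinc-finger factor that binds enhancers (chr10:13964671-13968245). It held 11 and 7 summits in its richest interval in Hoxa5-deficient libraries and 9 and 6 in controls. Library 2 of each genotype had the region cut into 2 intervals, and over all intervals the numbers were 11 and 11 against 9 and 9. The region at Tsc22d2, with 8 and 3 summits against 9 and 5, was likewise cut in the second libraries, and held 8 and 6 against 9 and 8 over all intervals. A summit number therefore depends on whether a shallow stretch between summits was called or not.

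Across all 610 regions the interval with most summits held on average 5.25 and 5.23 summits in the Hoxa5-deficient libraries and 5.54 and 5.52 in the controls. The group means were 5.24 ± 0.0104 in Hoxa5-deficient libraries and 5.53 ± 0.0116 in controls (SD, n = 2 each), a difference of -0.286. The difference is a description with no test, because both controls had to reach 5 summits and the Hoxa5-deficient libraries did not. Of the 610 regions, 460 and 456 had 5 or more summits in the Hoxa5-deficient libraries, 389 (63.8%) in both, and 83 (13.6%) in neither. Choosing regions by 5 or more summits in both Hoxa5-deficient libraries instead gave 918 regions, 0.46% of all, and the same 389 were 42.4% of these.

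**Figure D3:**
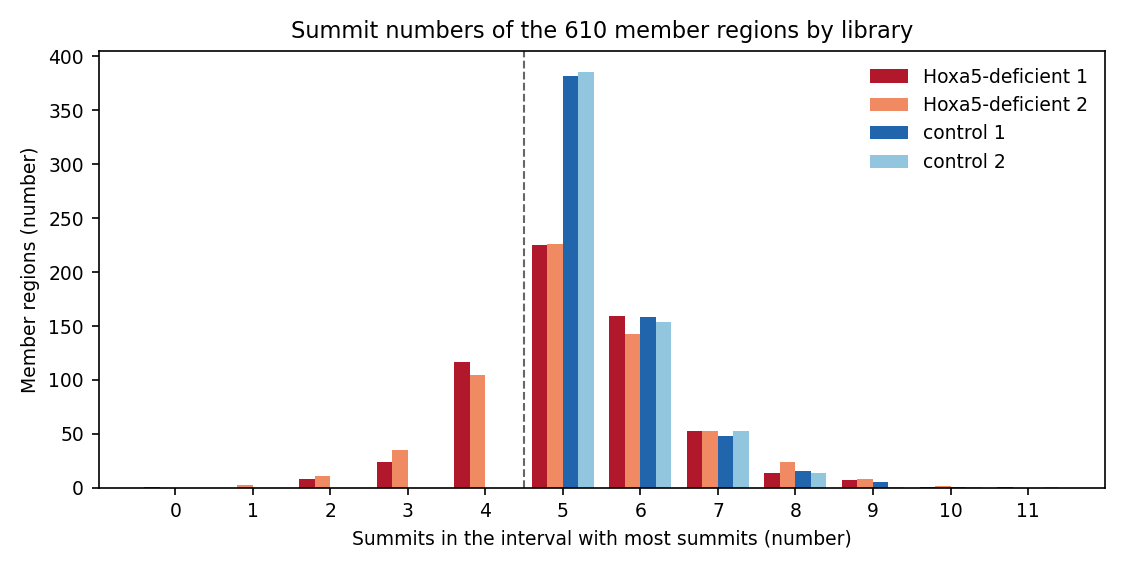
Number of multi-summit regions by the summits in their richest interval, for each library; the dashed line marks the minimum of 5 that both controls had to reach. The Hoxa5-deficient libraries spread from 0 to 11 and from 1 to 10 summits, with 225 and 226 regions at exactly 5.

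Values near the threshold of the rule were as follows. The 295 regions with exactly 5 summits in both controls averaged 4.80 and 4.69 in Hoxa5-deficient libraries, and 52.2% reached 5 in both; the other 315 averaged 5.67 and 5.74, and 74.6% reached 5 in both. Just outside the rule, 497 regions with 4 summits in one control and 5 in the other averaged 4.33 and 4.27 in Hoxa5-deficient libraries, and 26.4% had 5 or more in both. Summit numbers in the unused genotype thus followed the control numbers on each side of the threshold.

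Fewer summits in both Hoxa5-deficient libraries than in either control were counted in 104 of the 610 regions (17%), and more in 44 (7.21%). Over all regions called in all 4 libraries the same counts gave 3.31% with fewer and 8.75% with more, and over regions with 3 or 4 summits in both controls, which are likewise chosen on controls, 12.7% and 7.76%. The rule used the control numbers, so nothing is read from these shares. In the other 462 regions the groups overlapped. Of the 104 regions with fewer, 37 were cut into 2 or more intervals in at least 1 Hoxa5-deficient library, and 23 held 5 or more summits in both when all intervals were counted. Their strongest summits were ranked by the authors' −log10 p among all intervals of a list. The median percentile was 89.7 and 91.2 in the Hoxa5-deficient lists and 89.0 and 88.7 in the control lists. This was high, but lower than in the 462 regions where the groups overlapped, with 93.0 and 93.5 against 91.9 and 92.5. In the 104 regions the widest interval was shorter in Hoxa5-deficient libraries, with medians of 1480.5 and 1462.5 bp against 1629 and 1626.5 bp.

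Summit numbers in the Hoxa5-deficient libraries varied with the position of the region. At protein-coding gene ends, 476 regions averaged 5.33 in Hoxa5-deficient libraries and 5.52 in controls, and 66.8% had 5 or more summits in both Hoxa5-deficient libraries. At coding starts inside a gene the means were 5.15 against 5.58, and 61.8% of 55 regions reached 5 in both; at noncoding starts they were 5.50 against 5.73, with 76.9% of 13. The 33 regions inside a gene without a start averaged 4.79 against 5.55, and 51.5% reached 5 in both. Lowest were the 24 regions between genes without a start, with 4.31 in Hoxa5-deficient libraries against 5.40 in controls, and only 7 of them (29.2%) reached 5 in both. The rule held both controls at 5 or more at every position, so no difference between genotypes is read from these means.

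A reading that the rule does not favour was obtained by choosing regions on 1 library and counting summits in the others. The 1210 regions with 5 or more summits in control 1 averaged 4.70 and 4.68 in the Hoxa5-deficient libraries and 4.47 in the other control. The 1126 regions chosen on control 2 averaged 4.76 and 4.70 in the Hoxa5-deficient libraries and 4.59 in the other control. On the numbers as counted, the Hoxa5-deficient mean was higher than the control that had not been used by 0.220 and 0.144 summits, so the lower mean of the Hoxa5-deficient libraries over the 610 regions was not found when a control was read in the same way. Divided by each library's mean number of summits per interval, an alternative chosen after seeing the data, the values were 3.11 and 3.14 in Hoxa5-deficient libraries against 3.11 in the unused control for regions chosen on control 1, and 3.15 and 3.15 against 3.18 for those chosen on control 2, differences of 0.0111 and -0.0320. The direction of the second reading thus depended on this scaling. With an equal number of summits taken per library, the strongest 163016 of each, the average of the 2 differences was 0.0955, against 0.182 for the lists as deposited.

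Read in the reverse direction, the 1711 regions chosen on Hoxa5-deficient library 1 averaged 4.60 in the other Hoxa5-deficient library and 4.10 and 4.06 in controls. The 1578 chosen on Hoxa5-deficient library 2 averaged 4.68 against 4.15 and 4.07. The same regions were also read after dividing by each library's mean number of summits per interval, as above. Those chosen on Hoxa5-deficient library 1 then gave 3.09 in the other Hoxa5-deficient library against 2.84 and 2.82 in controls. Those chosen on library 2 gave 3.10 against 2.88 and 2.84. Each Hoxa5-deficient list was longer than each control list, and the part of list length or depth in these differences was not tested further. With 1 library of one genotype against 2 of the other, no test was made.

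**Figure D4:**
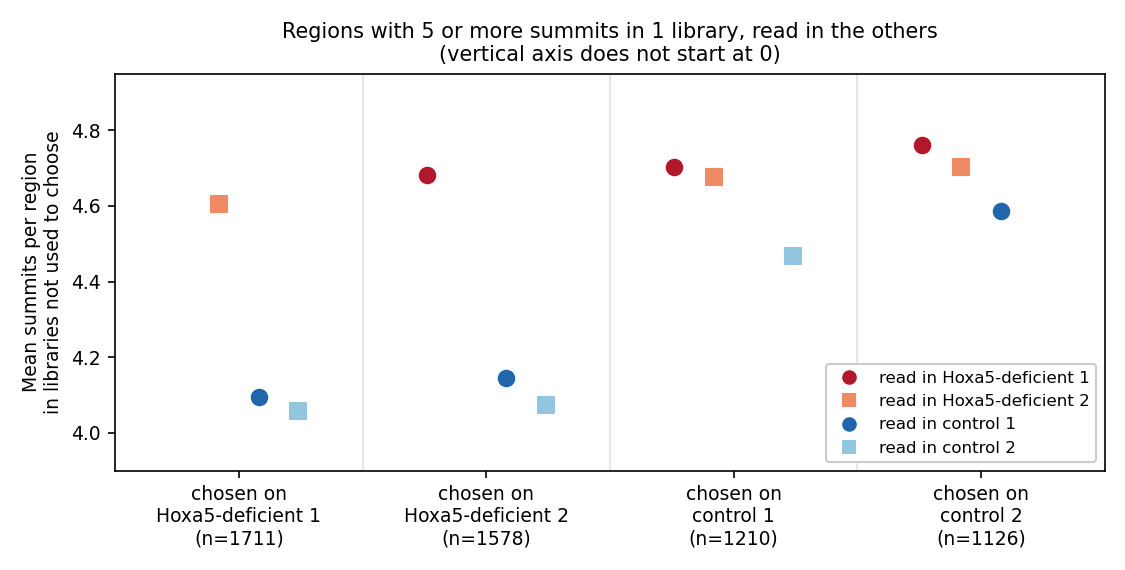
Mean summits per region in the libraries that were not used for the choice, for regions with 5 or more summits in the library named below each column; the vertical axis does not start at 0. Both Hoxa5-deficient libraries lie above the unused control in the 2 right columns, at 4.68 to 4.76 against 4.47 and 4.59.

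The same reading was split by position. At protein-coding gene ends the Hoxa5-deficient mean exceeded the unused control by 0.294 among 847 regions chosen on control 1 and by 0.185 among 804 chosen on control 2. At other starts the differences were 0.193 and 0.105. In regions at no gene end or start they were -0.0217 and -0.0265, with means of 3.77 and 4.01 in Hoxa5-deficient libraries against 3.79 and 4.04 in the unused control. In these intergenic and intronic regions the summit number in a control that had not been used was close to that in the Hoxa5-deficient libraries. Regions chosen on a Hoxa5-deficient library gave another picture: in those at no gene end or start the unused Hoxa5-deficient library was higher than the controls by 0.808 and 0.848, and in those at gene ends by 0.452 and 0.482. This split was added after the data were seen, and the difference between positions was not tested.

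Choosing regions alike in both genotypes, by 20 or more summits summed over the 4 libraries, gave 637 regions, 459 of which were multi-summit regions. They held 5.75 and 5.76 summits in Hoxa5-deficient libraries and 5.43 and 5.33 in controls. The group means were 5.75 ± 0.0122 in Hoxa5-deficient libraries and 5.38 ± 0.0699 in controls (SD, n = 2 each), higher by 0.378 in Hoxa5-deficient libraries (two-sided exact permutation test, p = 0.3333, the smallest that 2 against 2 libraries can give). Divided by each library's mean number of summits per interval, the values were 3.799 and 3.87 against 3.76 and 3.71, a difference of 0.0956 with the same p. The groups did not overlap on either scale, but a design of this size cannot pass a threshold of 0.05. The regions were chosen on the same numbers as counted for both scales, so the scaled values are not a separate reading.

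Most summits kept their places between libraries. Within multi-summit regions, 83.9% of a library's summits had a summit of the other library of the same genotype within 50 bp (range 82.1% to 85.6% over 4 directed pairs), and 80.7% had one in a library of the other genotype (79.0% to 82.7% over 8). The ranges overlapped by a little. At 25 bp the shares were 70.1% and 64.0%, and at 100 bp 89.9% and 88.0%. The same-genotype shares at 25 bp were 74.3% and 74.2% in the Hoxa5-deficient pair and 66.1% and 65.9% in the control pair. Those of the control pair lay within the range between genotypes, 61.6% to 66.4%. For summits of the controls alone, the shares in Hoxa5-deficient libraries were 61.6% to 63.9%. In regions with 3 or 4 summits the shares at 50 bp were 82.4% and 78.7%. These shares depend on how many summits the other library has.

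The region with the lowest ratio of summits in Hoxa5-deficient to control libraries lay between genes, within 1 kb of the noncoding gene Gm3764 and 8727 bp from the hairpin of Mir9-1, which gives rise to miR-9, a microRNA of neural progenitors and neurons (chr3:88205298-88206871). It held 0 and 1 summits in Hoxa5-deficient libraries and 6 and 6 in controls. The control intervals were 1517 and 1408 bp wide, and their strongest summits had a low fold of 3.12 and 3.14; the single interval of Hoxa5-deficient library 2 was 209 bp wide with a fold of 1.62. Library 1 of the Hoxa5-deficient pair had no interval, which makes this the only multi-summit region missing from a library. The nearest intervals on each side of it were called in all 4 libraries: that to the left had a fold of 2.87 and 2.97 in Hoxa5-deficient lists and 2.303 and 2.77 in control lists, and that to the right 7.77 and 9.99 against 6.08 and 4.69. The summits that differed thus lay in 1 broad and weakly enriched interval between others that were present in every library. Another hairpin, Mir3093, lay nearer, at 8300 bp. Between the region and these hairpins, a further interval was called in all 4 libraries, with a strongest fold of 9.77 and 11.6 against 10.2 and 10.8. A link between the region and Mir9-1 was not tested. The mature products of Mir9-1, a neural microRNA gene within 10 kb of the region, are printed with the seed, bases 2 to 8, in capitals.
miR-9-5p: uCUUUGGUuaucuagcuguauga
miR-9-3p: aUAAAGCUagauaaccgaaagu

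A second intergenic region with few summits in Hoxa5-deficient libraries lay 284 kb from Mpdz, the nearest protein-coding gene (chr4:81726695-81728205). It held 2 and 1 summits in Hoxa5-deficient libraries and 5 and 6 in controls. In Hoxa5-deficient library 1 it was cut into 3 intervals, and over all intervals the numbers were 4 and 1 against 5 and 6. Its strongest fold was 2.44 and 2.27 against 8.20 and 6.30. Here the strongest fold was low in the Hoxa5-deficient lists as well as the summit number. A region on chromosome 18 near Gm41733, a noncoding gene, and 691 kb from Gramd3 had 2 and 2 summits against 5 and 6, but 4 and 4 over all intervals. Inside Snd1, which encodes a tudor-domain nuclease, a region had 2 and 2 against 5 and 6 and also 4 and 4 over all intervals. These were cut into 2 intervals in both Hoxa5-deficient libraries. Regions 45.1 kb from Snd1 and inside Pcca, which encodes a subunit of propionyl-CoA carboxylase, each had 3 and 2 against 5 and 5. Over all intervals the first had 3 and 4 against 6 and 5, and that inside Pcca 4 and 3 against 5 and 5.

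At gene ends the lowest ratios were at Pdzd4, a PDZ-domain gene on the X chromosome, and Wnt2b, a secreted Wnt ligand. Pdzd4 had 2 and 2 summits in Hoxa5-deficient libraries and 5 and 5 in controls, with a similar strongest fold of 12.7 and 13.1 against 10.9 and 13.5. It was cut into 2 intervals in both Hoxa5-deficient libraries, which held 3 and 3 summits over all intervals. Wnt2b also had 2 and 2 against 5 and 5 (chr3:104961058-104962552), and there the strongest fold was 8.32 and 11.6 in Hoxa5-deficient lists and 5.69 and 6.52 in control lists. At Wnt2b the summits that flank the centre were present in all 4 libraries, and those that differed lay towards the edges: controls had summits 436 and 468 bp and again 656 and 624 bp to the right of the centre, where Hoxa5-deficient library 1 had a single one at 501 bp in a separate interval and library 2 had none. To the left, the outermost summits of the Hoxa5-deficient libraries lay at -120 and -93 bp from the centre, and those of the controls further out at -292 and -458 bp. Hence fewer summits went with a narrower interval and not with a lower strongest summit. The start printed above lies in this region.

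**Figure D5:**
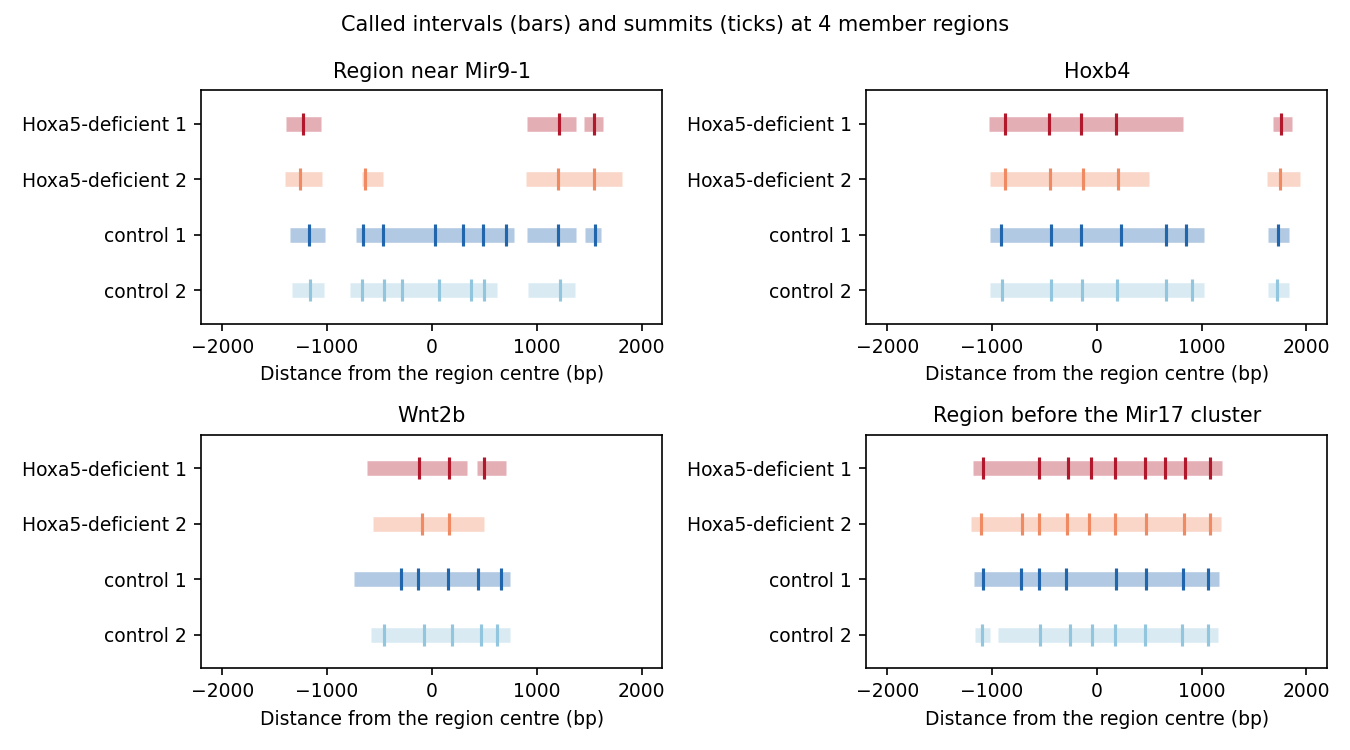
Called intervals (bars) and their summits (ticks) by distance in bp from the region centre, for the region near Mir9-1, Hoxb4, Wnt2b and the region before the Mir17 cluster, with 1 row per library. Hoxa5-deficient libraries have 0 and 1 summits near Mir9-1, 4 and 4 at Hoxb4 and 2 and 2 at Wnt2b in the richest interval, against 6 and 6, 6 and 6, and 5 and 5 in controls; before the Mir17 cluster they have 9 and 9 against 8 and 7.

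The largest ratio in the other direction was at Ctbp2, a transcriptional corepressor, with 9 and 9 summits in Hoxa5-deficient libraries against 6 and 6 in controls. The control intervals at Ctbp2 were cut, and over all intervals controls had 8 and 7.

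Among the next were a pair of postsynaptic scaffold genes. Shank3 had 8 and 8 summits at an internal start in Hoxa5-deficient libraries against 5 and 6, and Shank1 had 8 and 9 at a region inside the gene against 5 and 7. At Shank1 control 1 was cut into 2 intervals, and its count over both was 8. Egln1, the prolyl hydroxylase that marks HIF for degradation, and Htr1b, a serotonin receptor, each had 7 and 7 against 5 and 5, all in single intervals. Irs2, an adaptor of the insulin receptor, had 8 and 7 against 6 and 5, but both control intervals were cut, and over all intervals each genotype had 8 and 7. The shared start of Pigp and Ttc3 had 7 and 8 against 6 and 5. These regions were chosen for their ratio, and their values are a description.

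Genes with a multi-summit region at an end numbered 555 of 21887 protein-coding genes (2.54%), or 3.97% of the 13988 with a region called in all 4 libraries at an end. Of 39 Hox genes, 33 had a region called in all 4 libraries at an end, and 1 (2.56%), Hoxb4, had a multi-summit region there, a share near that of all protein-coding genes. The region lies within the body of Hoxb3 as annotated (chr11:96318047-96320095). Of 9 genes of the Pbx, Meis and Pknox cofactors of Hox proteins, none did. Hoxb4 held 4 and 4 summits in the Hoxa5-deficient libraries and 6 and 6 in the controls, in a single interval in each library. The interval was 1851 and 1516 bp wide in Hoxa5-deficient libraries and 2040 bp in each control.

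At Hoxb4 the 4 summits of the Hoxa5-deficient libraries had counterparts in the controls, and the strongest, 185 and 205 bp right of the centre in Hoxa5-deficient libraries and 229 and 192 bp in controls, had a fold of 6.77 and 6.84 against 6.46 and 5.88. The 2 further summits of the controls lay at 662 and 659 bp and at 855 and 913 bp, on the side towards the gene's interior. They had folds of only 1.9 and 1.86, and 1.37 and 1.49. The Hoxa5-deficient lists thus lacked summits in the weak downstream part, although the interval of library 1 still reached 826 bp right of the centre. The hairpin of Mir10a, which lies between Hoxb4 and Hoxb5, starts 773 bp outside the region, and its mature products are given because it is the microRNA nearest to the Hox region.
miR-10a-5p: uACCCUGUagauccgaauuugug
miR-10a-3p: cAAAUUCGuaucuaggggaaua

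Lists of neuronal identity genes held 1 or 2 genes with a multi-summit region each, against 2.54% of all protein-coding genes. Among 25 genes of motor neuron identity and cholinergic function there were 2 (8%): Nefm, the medium neurofilament, had 6 and 5 summits in Hoxa5-deficient libraries and 6 and 6 in controls, and Lmo4, a LIM-only cofactor, had 4 and 4 against 5 and 5. None of the 9 motor neuron markers named above had one. Of 24 genes of motor columns and pools only Bhlhe22 did, with 5 and 6 against 6 and 7, and of 35 progenitor and Notch genes only Neurog2, a proneural factor, with 5 and 6 against 5 and 7. Of 33 interneuron transcription factors only Ptf1a, a factor of inhibitory neurons, had one, with 4 and 5 against 5 and 5. Lmo4 is the only one of these 5 genes at which the groups did not overlap.

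Among general neuronal genes the counts were also small, again beside 2.54% of all protein-coding genes. Of 30 pan-neuronal transcription factors 4 had a multi-summit region (13.3%): Sox11 with 5 and 9 summits in Hoxa5-deficient libraries against 6 and 6, Scrt1 with 6 and 6 against 5 and 7, Zeb1 with 7 and 6 against 6 and 5, and Insm2 with 5 and 6 against 6 and 5. The groups overlapped or touched at each of them. Of 45 synaptic receptor and organiser genes 6 had one (13.3%), among them the neuroligin gene Nlgn2 with 6 and 7 in Hoxa5-deficient libraries against 5 and 6, the glutamate receptor genes Grin2b with 4 and 5 against 5 and 6, Grid1 with 5 in each library and Grin3a with 5 and 4 against 5 and 5, and the neurexin gene Nrxn2 with 3 and 4 against 5 and 5. Of these, Nrxn2 had fewer summits in both Hoxa5-deficient libraries than in either control. Of 27 cytoskeleton genes 3 had one (11.1%): Nefm, and Dpysl2 and Dpysl5, which encode collapsin response mediator proteins, with 6 and 5 against 6 and 7, and 9 and 5 against 7 and 8.

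In the other lists, 2 of 43 axon guidance genes had a multi-summit region. Ephb2, an ephrin receptor, had 6 and 7 summits in each genotype, and Plxna1, a semaphorin receptor, 5 and 6 in Hoxa5-deficient libraries against 6 and 5. Of 27 cadherins and protocadherins Cdh8 had one (6 and 6 against 5 and 6), of 28 Polycomb genes Phc1 (5 and 6 in each genotype), of 16 glial genes the nuclear factor gene Nfic (5 and 3 against 5 and 5). The housekeeping list had 2 of 25, the chaperone Hsp90ab1 with 5 in each library and the elongation factor Eef1a1 with 5 and 3 against 5 and 5. No gene of 16 sensory neuron and neural crest genes or of 26 markers of blood, vessel and muscle cells had one. Over all 16 lists, 25 of 436 genes (5.73%) had a multi-summit region at an end, against 2.54% of all protein-coding genes. The lists were chosen with earlier results of these data known, and nothing particular to a list is read from its share.

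MicroRNA hairpins lay within 10 kb of 22 multi-summit regions (3.61%). The share over all regions is not given here, so nothing about the set is read from this count. One region covers the stretch before the Mir17 cluster on chromosome 14 (chr14:115040250-115042642), whose microRNAs act in cell proliferation, 1029 bp from the first hairpin. It held 9 and 9 summits in the Hoxa5-deficient libraries and 8 and 7 in the controls, with a strongest fold of 7.33 and 7.97 against 8.28 and 8.06. In control 2 a further summit lay in a separate interval of 151 bp, and counting it gives 8. The cluster is shown because its members fall into families by seed, in capitals.
miR-17-5p: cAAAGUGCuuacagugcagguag
miR-20a-5p: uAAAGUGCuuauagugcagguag
miR-18a-5p: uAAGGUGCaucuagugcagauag
miR-19a-3p: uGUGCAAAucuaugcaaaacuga
miR-19b-3p: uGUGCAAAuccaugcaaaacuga
miR-92a-3p: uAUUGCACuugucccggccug
The seed AAAGUGC is shared by miR-17 and miR-20a and the seed GUGCAAA by miR-19a and miR-19b, while miR-18a and miR-92a have seeds of their own. The region before Mir15b and Mir16-2, between Smc4 and Ift80, held 5 and 7 summits in Hoxa5-deficient libraries against 6 and 5. The region next to Mir193b held 6 in each library. The groups overlapped at both.

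Genes for transfer RNAs, which RNA polymerase III transcribes from promoters inside the gene, lay within 1 kb of 7 multi-summit regions (1.15%). Here too the share over all regions is not given, and nothing is read from the count. A region on chromosome 1 with 5 such genes near Fcgr3 held 7 and 7 summits in Hoxa5-deficient libraries and 5 and 8 in controls. A region on chromosome 13 with 4 such genes near H4c8 held 4 and 4 against 6 and 6. Near Wnt11 and Arl5c, regions with 2 such genes each held 6 and 5 against 5 and 5, and 4 and 4 against 6 and 5. Copies of transfer RNA genes are near-identical, so reads there may have been placed on one of several copies.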

How the data were processed

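ATAC-seq was measured in 2 Hoxa5-deficient and 2 control libraries, grouped by the genotype in their titles. Per the submitters' processing notes the tools were FastQC 0.11.9, Bowtie2 2.3.4.3, SAMtools 1.9 and MACS2 2.2.4, on mm10; their settings, and any Tn5 offset applied to reads, are not given in the sources. The authors deposited a headerless peak list for each library. Each row is a summit, and rows that share chromosome, start and end are summits of 1 interval. The deposited score is 10 times −log10 p as a whole number, capped at 1000. The deposited fold ratio over local background, −log10 p-value and −log10 q-value belong to single summits and served only for comparisons inside a list. The files give no read depth; the local background was recovered from fold and p, and for 100% of 20000 summits checked per library with −log10 p under 300, a whole-number pileup met the deposited p within a tolerance of 0.001.

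Summits were counted per interval, intervals of 21 chromosomes were merged at 1 bp, and a region's number is that of its richest interval in each library. Gene ends and bodies came from RefSeq on GRCm38.p6 (21887 protein-coding genes), and starts, strands and sequences from RefSeq tables of the same assembly; starts on chromosome 18 were not analysed here. The table of ends gives no strand, so an end is either end of a gene. Coordinates are 1-based. The members and lists were chosen with earlier results of these data known. Named regions are the 12 with most summits in controls, the 8 with the largest and the 8 with the smallest ratio of (mean + 1) between genotypes, the 6 widest, the 6 farthest from a gene, Hox genes and up to 4 genes per list; the transfer RNA and microRNA regions were chosen after their values were seen. A few of the regions and genes so chosen are left out of the text. The counting was tested on simulated lists with known summit numbers. No embryos per library are given, so spread between libraries may be technical. Python 3.11.15, pandas 2.3.3, numpy 2.4.6, scipy 1.17.1 and matplotlib 3.10.9 were used.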

Additional observations from a re-analysis of the deposited data

How the results depend on the processing

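The direction of the difference in means over multi-summit regions (-0.286) and of that over regions chosen alike in both genotypes (0.378) was the same under every alternative that was run for them. Over regions chosen alike it ranged from 0.271 to 0.535 summits. As a ratio to each library's summits per interval, which is another scale, it was 0.0956. The exact permutation test gave p = 0.3333 throughout, apart from the paired test. The rule favours the negative sign over multi-summit regions, because the controls had to reach the minimum and the Hoxa5-deficient libraries did not. Nothing is read from that sign staying the same. Other results moved in size, and the cause was not tested unless the alternative itself uses another summit minimum or other summits. With only summits of −log10 q of 5 or more there were 349 regions, of median width 1918 bp, 70.8% had 5 or more summits in both Hoxa5-deficient libraries, the difference in means was -0.0831 and that against the unused control 0.349. With an equal number of summits per library the last 2 were -0.352 and 0.0955. A minimum of 4 gave 2278 regions (1589 bp, 72.8% at gene ends, 70.2% at the minimum in both Hoxa5-deficient libraries, difference -0.202). A minimum of 6 gave 137 (2072 bp, 74.5%, 54.7%, -0.467, and 0.262 against the unused control). Summing all intervals gave 919 (1899 bp, 72.0%, 69.6%, -0.182). Dividing by each library's summits per interval gives ratios, whose size cannot be set beside differences in summits. The differences in ratio were -0.351 over multi-summit regions, 0.0956 over regions chosen alike, and -0.0105 against the unused control. The sign of the last turned from that of 0.182 summits, and the last 2 were chosen after seeing the data. The share at gene ends was 67.0% for the end itself, 84.6% within 5 kb, 84.4% with all genes of the table and, chosen after seeing the data, 66.2% for the strongest summit. At 25 bp the same-genotype excess in shared summit positions was 6.08 percentage points, against 3.13 at 50 bp. Both are means over the pairs of both genotypes. At 25 bp the shares were 74.3% and 74.2% in the Hoxa5-deficient pair but 66.1% and 65.9% in the control pair.

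Leaving out 1 library at a time, with the rule on 1 control where a control was left out and on the remaining library where a Hoxa5-deficient one was, gave 610 to 1210 regions, 70% to 78.0% at gene ends, 44.7% to 75.4% with 5 or more summits in the Hoxa5-deficient libraries, differences from -0.702 to -0.279, and median widths from 1720 to 1838 bp. The number of regions was 1126 without control 1 and 1210 without control 2, and the differences were -0.636 and -0.702. Over regions chosen alike the difference ranged from 0.271 to 0.464. The titles share replicate numbers across genotypes, but nothing ties equal numbers to a litter. With the replicate number as a block the paired differences were -0.287 and -0.285 (mean -0.286) over multi-summit regions, and 0.320 and 0.436 (mean 0.378) over regions chosen alike, with an exact sign-flip p of 0.5, the smallest that 2 pairs allow; deviations of equal numbers correlated at 0.0303 over the 610 regions.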

Other observations

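Multi-summit regions were found on all chromosomes other than Y, where 9 regions were called in all 4 libraries. Per 1000 regions called in all 4 libraries, the X chromosome had 17.0 multi-summit regions (20 in all) and chromosome 12 had 5.46 (16 in all), while the other chromosomes lay between 6.90 and 12.4. Pairs of multi-summit regions within 100 kb of each other numbered 18. Within their bodies Agap1, Iqsec1, Nol4l, Sh3pxd2a, Shank1 and Stox2 each held 2. Among the regions farthest from a protein-coding gene, one 503 kb from Mki67 held 4 and 6 summits in Hoxa5-deficient libraries and 5 and 5 in controls, one 487 kb from Stxbp6 held 4 and 3 against 5 and 5, and one 353 kb from Ajap1 held 4 and 4 against 5 and 6. Their strongest folds lay between 4.5 and 9.5.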
